A study of Mus musculus with 12 samples.

Results

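Pressure overload of the left ventricle was read as 1 contrast here: the ventricles of 8 mice with transverse aortic constriction, whatever vector they carried, against those of 4 sham-operated mice. These 12 mice are the whole series, and the members were chosen by the group name in each sample title. All were wild-type C57Bl/6J animals. Sham-NT mice received PBS and no vector. TAC-mScarlet mice received AAV9-MHCK7-mScarlet, an adeno-associated virus that expresses the fluorescent protein mScarlet from the muscle promoter MHCK7. TAC-BacNav mice received AAV9-MHCK7-BacNav-mScarlet, which adds BacNav, a bacterial voltage-gated sodium channel tested as a gene therapy for heart failure. Each of the 3 groups held 4 mice. Every constricted mouse carried a vector and no sham mouse did, so constriction, vector and mScarlet cannot be told apart in this contrast. The sources used here give no age, sex or time after surgery.

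Transverse aortic constriction narrows the aorta, so the left ventricle must eject against a raised pressure. The ventricle is known to respond with cardiomyocyte growth, the return of genes of the fetal heart such as the natriuretic peptides, skeletal actin and beta myosin, deposition of matrix by activated fibroblasts, and a lower expression of genes for fatty acid oxidation and the respiratory chain. Sham surgery opens the chest without the band and serves as the baseline. The tissue label was checked on 18 ventricular cardiomyocyte markers, whose summed level was 108660.1 to 115371 CPM (TMM-scaled counts relative to a total of 1e6) in Sham-NT, 72003 to 95397 in TAC-mScarlet and 84805 to 109586 in TAC-BacNav. Of 10 atrial markers 8 were tested, at a summed level of 135 to 152 CPM in Sham-NT, 111 to 135 in TAC-mScarlet and 120.0 to 144 in TAC-BacNav, and Sln and Bmp10 were not tested. In bulk tissue, fewer cells of a type and less RNA per cell cannot be told apart.

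The libraries were not alike apart from surgery. Total counts, in units of 1e6, were 5.36 to 7.84 in Sham-NT and 7.36 to 11.5 in the constricted mice, means of 6.34 ± 1.14 and 8.85 ± 1.27 (SD, n = 4 and 8, exact two-sided permutation p = 0.00404). The TMM scaling factor was also lower in Sham-NT (0.924 to 0.987) than in all constricted libraries except TAC-BacNav 1 (0.971, against 1.01 to 1.06 in the other 7). On the first principal component of log2 CPM over all genes tested, which held 28.7% of the variance, TAC-BacNav 1 (-18.8) lay between the Sham-NT libraries (-41.3 to -15.4), whereas the other constricted libraries ran from -1.19 to 43.3 and TAC-mScarlet 3 was the farthest from sham. Immediate early genes split each group: 7 libraries had Fos above 30 CPM, namely TAC-mScarlet 1, 2 and 3 and the mice numbered 1 and 2 of the other groups, and 5 had it below.

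Of 13910 genes tested, 358 (2.57%) differed between the constricted and the sham hearts, 160 higher (1.15%) and 198 lower (1.42%). A call means an adjusted p below 0.05 by edgeR's quasi-likelihood test on the mean of the constricted groups minus Sham-NT, adjusted by Benjamini-Hochberg over all 13910 genes. Of the 358, 58 were at least 2-fold higher and 36 at least 2-fold lower. The largest adjusted p among them was 0.0499 and 304 of them lay above 0.03, so most calls stood close to the threshold. Without a TMM factor, dividing by library size alone, 527 genes passed, of which 418 were higher and 109 lower. The median log2 change of all genes was then 0.117 in place of 0.0049. Directions are therefore given relative to TMM.

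A change was taken as shared by both constricted groups if the gene was called and all 8 constricted libraries lay on one side of all 4 sham libraries. This held for 192 genes (1.38%), 106 higher (0.762%) and 86 lower (0.618%). Over all genes tested, called or not, 470 (3.38%) had no overlap between the 8 and the 4 libraries, 263 higher (1.89%) and 207 lower (1.49%). The same shams serve both constricted groups, so each group's own values are set side by side. In the 106 shared higher genes the median log2 change was 0.98 in TAC-mScarlet and 0.74 in TAC-BacNav. In the 86 shared lower genes it was -0.72 and -0.502. On its own contrast with Sham-NT, TAC-mScarlet had 719 called genes (5.17%) and TAC-BacNav had 2 (0.0144%), of which Ankrd1 was 1. The difference between the constricted groups was called for 0 genes by edgeR (0%, smallest adjusted p = 0.780), with 467 genes (3.36%) at an unadjusted p below 0.05. Among the 192 shared genes, 37 had such an unadjusted p. A missed threshold does not show that the constricted groups were alike.

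**Figure D1:**
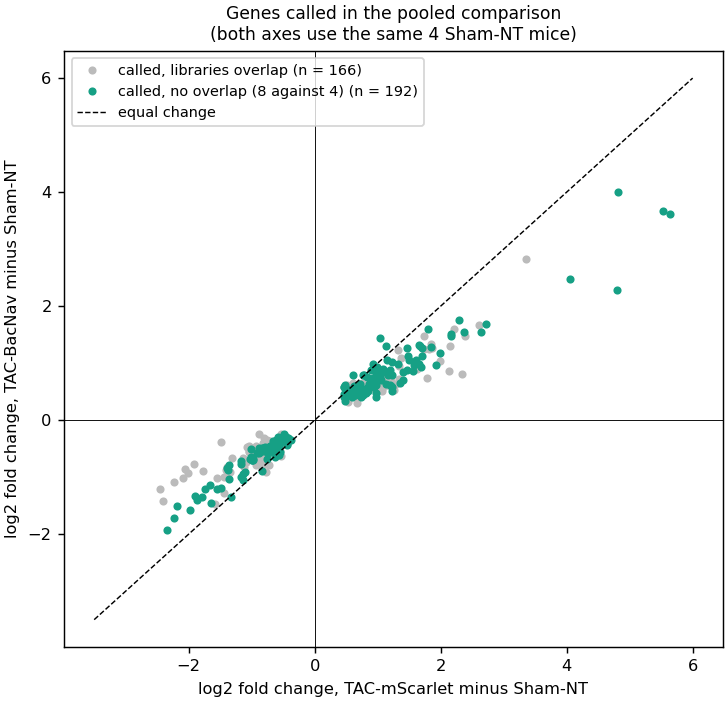
Each point is 1 of the 358 called genes, with its log2 fold change in TAC-mScarlet on the x axis and in TAC-BacNav on the y axis, each against the same 4 Sham-NT mice. Green points are the 192 genes with no overlap between the 8 constricted and the 4 sham libraries, and most points lie nearer to zero on the TAC-BacNav axis than the dashed line of equal change.

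The counts depended on single mice. Leaving out 1 library at a time gave between 2 and 975 called genes: 2 without Sham-NT 2, 5 without Sham-NT 4, 14 without Sham-NT 1, but 975 without Sham-NT 3. Among the constricted mice, the count was 23 without TAC-BacNav 2, 54 without TAC-BacNav 4, 90 without TAC-mScarlet 4, 132 without TAC-BacNav 3 and 189 without TAC-mScarlet 3, and 688 without TAC-BacNav 1. The shared genes numbered 489 without TAC-BacNav 1, 134 without TAC-mScarlet 3 and 2 to 803 over all 12 such fits. The gene lists described here moved with them. Of 30 lists that held a called gene, the adipocyte list with its 2 tested members aside, 27 held none without Sham-NT 2 and 27 without Sham-NT 4. The number with none was 23 without Sham-NT 1, 23 without TAC-BacNav 2, 22 without TAC-BacNav 4, 17 without TAC-mScarlet 4 and 15 without TAC-BacNav 3. It was 7 without TAC-mScarlet 3 and 0 without TAC-BacNav 1, and 16 and 20 lists held more called genes without Sham-NT 3 and TAC-BacNav 1. Only 2 genes, Ankrd1 among them, were called with all libraries and in all 12 such fits. Itgb8, Crispld2, Egflam, Etfbkmt, Mybpc2 and Pfkfb1 kept their call in at least 10 of the 12. With the Fos side as a further factor 1145 genes were called, 514 higher and 631 lower, and all 358 were among them. Within the Fos-high side (5 constricted, 2 sham) 445 genes were called, 109 of them among the 358. Within the Fos-low side (3 constricted, 2 sham), 144 were called, of which 45 belonged to the 358, and the lone TAC-mScarlet library there is assumed to vary as the rest do.

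**Figure D2:**
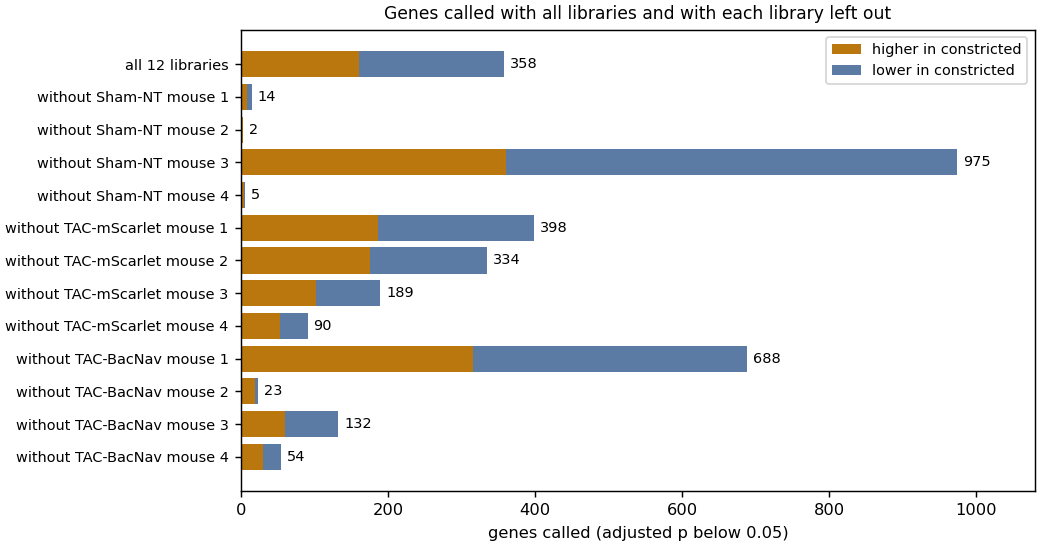
Bars give the number of genes called in the constricted against sham contrast (x axis), higher and lower stacked, with all 12 libraries and with each mouse left out (y axis). The count is 358 with all libraries, at most 14 without Sham-NT 1, 2 or 4 and 975 without Sham-NT 3.

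Ankrd1 had the smallest adjusted p of the genes named here (0.000323). Ankrd1 (ENSMUSG00000024803.9), which encodes an ankyrin repeat protein that responds to stretch and binds titin, was at 825, 655, 961 and 914 CPM in Sham-NT mice 1 to 4. Its level was 4282, 3971, 7349 and 6549.5 CPM in TAC-mScarlet and 1756, 2426, 3328 and 3303 CPM in TAC-BacNav. All 8 constricted libraries were above all 4 shams, with the lowest of them TAC-BacNav 1. The log2 fold change was 2.21 ± 0.22 (SE), with 2.72 in TAC-mScarlet and 1.69 in TAC-BacNav.

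Acta1, the skeletal actin gene that the fetal heart expresses, was at 251, 84.7, 221 and 193 CPM in Sham-NT, 4916, 2709, 6847 and 6673 in TAC-mScarlet and 305, 1757, 4863 and 5050.3 in TAC-BacNav. The groups did not overlap, but TAC-BacNav 1 was close to the highest sham while the other 7 were at 1757 CPM or above. Its log2 change was 4.41 ± 0.78 (adjusted p = 0.0373). Reads of Acta1 may be shared with the near-identical actins of heart and smooth muscle. Nppb, which encodes the B-type natriuretic peptide released by loaded ventricles, was at 575, 249.7, 219 and 234 CPM in Sham-NT, 1195, 663, 1864 and 2006 in TAC-mScarlet and 717, 1242, 1011 and 655 in TAC-BacNav. Sham-NT 1 was the highest sham, and the lowest constricted library exceeded it by less than the range of the shams. The change was 1.83 ± 0.37 (adjusted p = 0.0391). Nppa, for the atrial natriuretic peptide, was at 28.7 to 62.2 CPM in Sham-NT, 376 to 2871 in TAC-mScarlet and 73.9 to 333 in TAC-BacNav (3.53 ± 0.75, adjusted p = 0.0456). Its groups did not overlap. The constricted groups stood farther apart for Nppa than for any other called gene of the fetal and hypertrophic list, at 4.79 in TAC-mScarlet and 2.27 in TAC-BacNav, a difference of -2.52 ± 0.74 (unadjusted p = 0.00727, adjusted p = 0.9995). A gene on the opposite strand overlaps its exons. Corin, the protease that activates pro-atrial natriuretic peptide, fell (-0.52, adjusted p = 0.04300).

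Myh7, the beta myosin heavy chain, rose overall (1.57 ± 0.27, adjusted p = 0.0266) but was not shared by this rule. Its levels were 164, 148, 129.8 and 151 CPM in Sham-NT, 673, 715, 1129 and 476 in TAC-mScarlet and 149, 199, 415 and 272 in TAC-BacNav. TAC-BacNav 1 lay within the sham range, and the other 7 lay above it. The own changes were 2.34 ± 0.303 and 0.804 ± 0.29, and the reads may include the antisense transcript Mhrt. Myh6, the adult alpha chain, gave -0.49 (95% interval -0.85 to -0.13, adjusted p = 0.113) and was not called.

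The promoters of these genes are shown because Acta1, Nppb and Ankrd1 were higher in every constricted library than in any sham and their start regions hold motifs of muscle gene control. They come from RefSeq windows (GRCm38.p6) that reach from 250 bases before the start to 50 after it, of which the 250 bases before the start are printed, 5′ to 3′ on the gene's strand. Capitals mark exact matches, on either strand, of the M-CAT motif CATTCC, which TEAD factors bind, and of the CArG box, which serum response factor binds. Acta1 is at chr8:123894776-123895025 (minus strand), Nppb at chr4:147985650-147985899 (plus strand) and Ankrd1 at chr19:36119845-36120094 (minus strand).
Acta1: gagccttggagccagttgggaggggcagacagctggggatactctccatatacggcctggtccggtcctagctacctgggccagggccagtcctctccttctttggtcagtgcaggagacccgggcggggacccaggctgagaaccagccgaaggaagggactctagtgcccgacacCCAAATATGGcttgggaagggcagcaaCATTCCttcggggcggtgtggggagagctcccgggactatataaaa
Nppb: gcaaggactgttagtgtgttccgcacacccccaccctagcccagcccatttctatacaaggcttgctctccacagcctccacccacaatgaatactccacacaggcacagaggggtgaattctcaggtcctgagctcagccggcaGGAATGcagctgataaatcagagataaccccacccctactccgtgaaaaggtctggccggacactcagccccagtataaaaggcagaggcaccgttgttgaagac
Ankrd1: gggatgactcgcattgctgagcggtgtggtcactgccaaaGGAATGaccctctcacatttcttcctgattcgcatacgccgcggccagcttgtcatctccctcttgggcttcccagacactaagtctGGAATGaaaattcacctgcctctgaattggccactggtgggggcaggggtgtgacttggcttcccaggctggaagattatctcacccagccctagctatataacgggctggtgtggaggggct
Acta1 held 1 M-CAT motif and 1 CArG box, Nppb held 1 M-CAT motif and Ankrd1 held 2. No match overlapped another. Nppa was also higher in every constricted library than in any sham, but its window held neither motif and is not printed. Of the 13910 tested genes 10373 had a window, and M-CAT was found in 12.1% of these, in 13 of 74 (17.6%) of the shared higher genes with a window and in 5 of 60 (8.33%) of the shared lower ones. CArG boxes were in 1.34%, 2.70% (2 of 74) and 0% (0 of 60). The other motifs are given for all windows, then shared higher, then shared lower genes. AAGGTCA, which estrogen-related receptors bind, was in 3.18%, 1.35% (1 of 74) and 1.67% (1 of 60). TGANTCA, the AP-1 site, was in 4.87%, 8.11% (6 of 74) and 5% (3 of 60). GATAAG, which GATA factors bind, was in 4.80%, 8.11% (6 of 74) and 3.33% (2 of 60). These are matches of letters on both strands, without a test, and not binding sites.

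**Figure D3:**
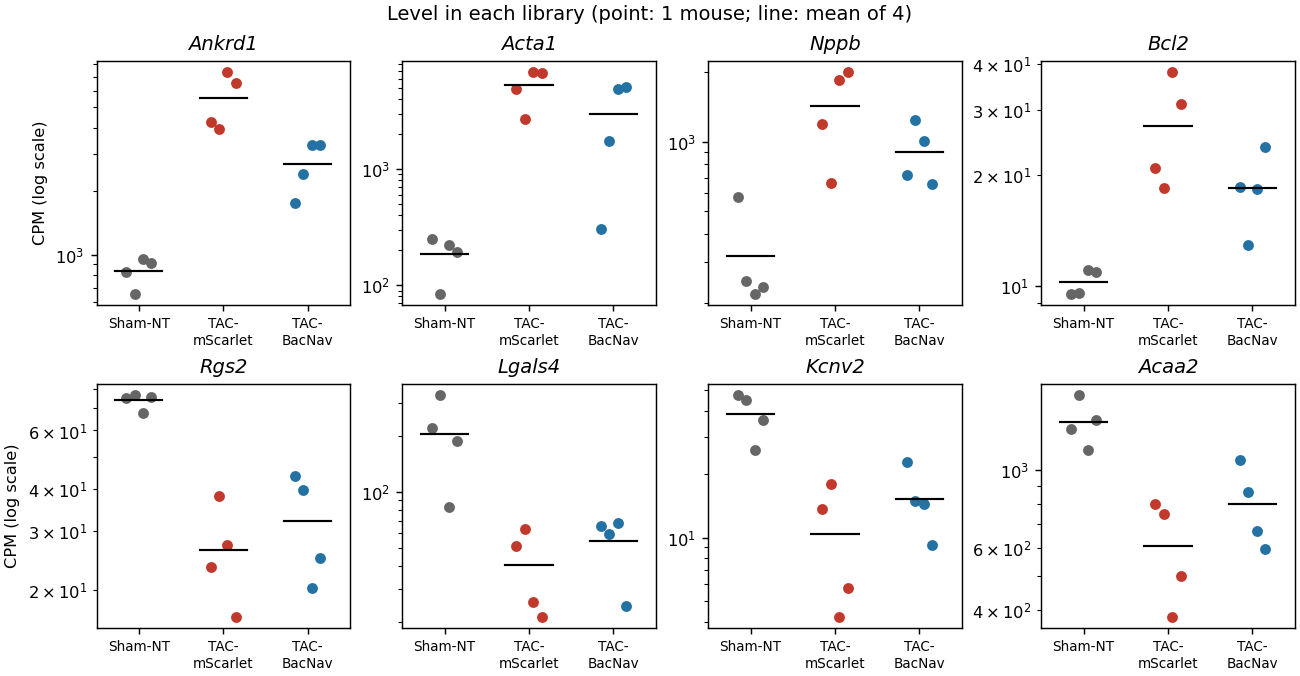
Levels in CPM (log y axis) of 8 shared genes in each library, by group (x axis), with each point 1 mouse and each line the mean of 4. In all 8 panels the constricted libraries lie on one side of the shams, and TAC-BacNav lies between Sham-NT and TAC-mScarlet in most.

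The fetal and hypertrophic programme held called genes in the higher direction alone. Of 19 tested members 9 rose, 0 fell and 10 did not pass, and 7 were shared. The share called was 47.4%, where 2.57% of all genes tested were called and 1.38% were shared. The list's median log2 change was 1.16 (1.61 in TAC-mScarlet, 0.804 in TAC-BacNav), against 0.0049 over all genes. Besides those above they included Mybpc2, the myosin binding protein C of fast skeletal muscle (1.27 ± 0.19, adjusted p = 0.0137), and Ankrd23, a titin-binding relative of Ankrd1 (1.34 ± 0.25, adjusted p = 0.02702). Mybpc2 was at 11.9 to 14.1 CPM in Sham-NT, 27.4 to 45.04 in TAC-mScarlet and 15.9 to 31.2 in TAC-BacNav. Xirp1, an actin-binding protein of the intercalated disc, changed by nearly the same amount in both constricted groups (1.15 and 1.06, adjusted p = 0.0282). Its relative Xirp2 rose as well (1.51), with overlap. Leaving out TAC-BacNav 1 gave 12 called members, all higher, and leaving out TAC-mScarlet 3 gave 6. The number called was 1 without Sham-NT 2 or Sham-NT 4, 3 without Sham-NT 1 or TAC-BacNav 2, and 1 to 12 over all 12 fits that left out a mouse. Within the Fos-high side 4 rose, and within the Fos-low side 10 did.

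**Figure D4:**
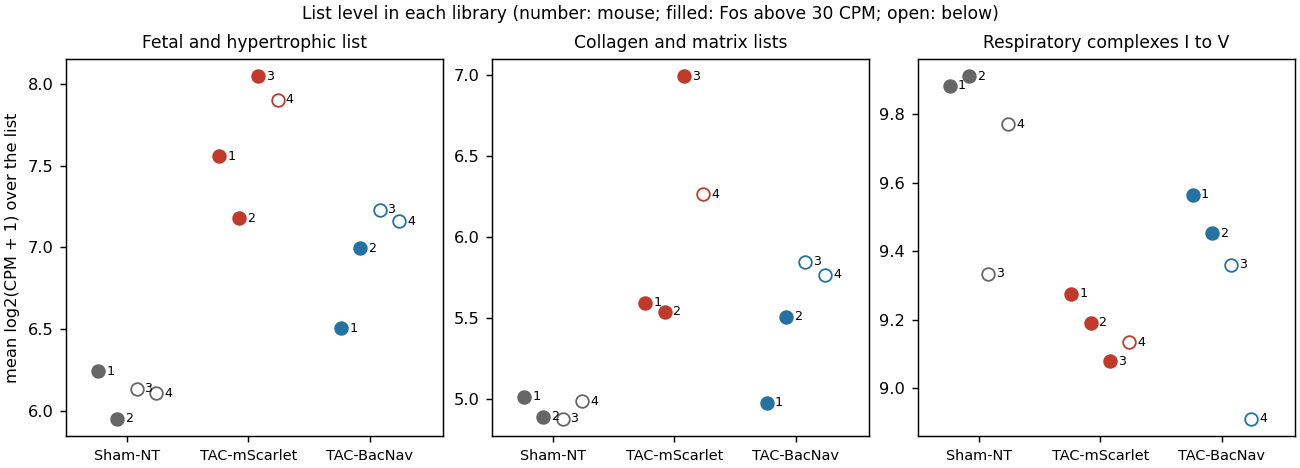
Mean log2(CPM + 1) over the fetal and hypertrophic list, the collagen and matrix lists and the respiratory complex lists (y axis) in each library by group (x axis), numbered by mouse and filled where Fos was above 30 CPM. The hypertrophic list is above the shams in all 8 constricted libraries, the matrix list is highest in TAC-mScarlet 3, and the respiratory list of Sham-NT 3 lies among the constricted libraries.

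Sarcomere genes outside this programme mostly did not pass, with 13.8% of the list called against 2.57% of all genes tested. Of 29 members Myom3, an M-band protein (0.98), and Flnc, filamin C, which anchors the Z-disc (0.69), rose, Tnni3 and Tnnt2, cardiac troponin I and T, fell, and 25 did not pass. Tnnt2 was at 13561 to 15281 CPM in Sham-NT and 9564 to 12507 in the constricted libraries, with no overlap (-0.43 ± 0.11, adjusted p = 0.0466). Tnni3 gave -0.75 ± 0.15 (adjusted p = 0.03397), with libraries of both groups overlapping, and its exons share sequence positions with Dnaaf3 on the same strand, which was shared (-1.07). These troponin genes were the 2 called of 18 ventricular cardiomyocyte markers (11.1%). Without TAC-BacNav 1 the sarcomere list had 7 called members, without TAC-mScarlet 3, TAC-mScarlet 4, TAC-BacNav 3 or TAC-BacNav 4 it had 1, and without Sham-NT 1, 2 or 4 or TAC-BacNav 2 none. Without Sham-NT 3 it had 8. The sarcomere list's median was 0.003, and 0.11 with library size scaling. At the intercalated disc, Xirp1 and Xirp2 rose, the desmosomal cadherin gene Dsg2 (-0.74, adjusted p = 0.02702) and the alpha-catenin gene Ctnna1 (-0.37) fell, and 16 of 20 genes did not pass. The share of disc genes called was 20%. Gja1, the main ventricular gap junction gene, gave 0.17 (95% interval -0.26 to 0.602) and was not called.

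No calcium handling gene was called. Of 27 tested members 0 passed edgeR's test, against 3 that fell with the Fos side as a factor and 2 without TAC-BacNav 1. Atp2a2, the calcium pump of the sarcoplasmic reticulum, was at 14039.9, 16035, 15742 and 14318 CPM in Sham-NT, 11051, 10670.3, 7061 and 10436 in TAC-mScarlet and 13826, 11370.1, 10952 and 12164 in TAC-BacNav. All 8 constricted libraries were lower than all 4 shams, although the change of -0.47 ± 0.13 missed the threshold (adjusted p = 0.0578). The release channel gene Ryr2 gave -0.55 (adjusted p = 0.0768), phospholamban, Pln, -0.25, and the sodium/calcium exchanger Slc8a1 -0.045 (95% interval -0.27 to 0.18). The list's median was -0.14.

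Membrane transport genes were called in both directions. Kcnv2, a silent subunit of voltage-gated potassium channels, was at 47.4, 44.9, 26.1 and 36.1 CPM in Sham-NT, 13.7, 17.9, 4.22 and 5.799 in TAC-mScarlet and 22.8, 14.8, 14.4 and 9.21 in TAC-BacNav. Every constricted library was lower than every sham, and the change was -1.61 ± 0.34 (adjusted p = 0.0398). It was the 1 called gene of 23 potassium channel genes, a share of 4.35% against 2.57% of all genes tested. Kcnd2, a pore subunit of the transient outward current, gave -0.599 (adjusted p = 0.0692). The sodium transport list had 1 higher call and 2 lower calls among 19 members, with 16 not called. All of these calls were shared, and the share of the list called was 15.8%. The anion exchanger gene Slc4a3 was at 220.3 to 255 CPM in Sham-NT and 91.05 to 203 in the constricted libraries, with no overlap (-0.65 ± 0.16, adjusted p = 0.0449). Its own changes were -0.82 in TAC-mScarlet and -0.48 in TAC-BacNav. With library size scaling the sodium list's median was 0.099 rather than -0.009.

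The called nuclear genes of the respiratory chain were all lower in constricted hearts. Of 37 complex I genes 8 fell and 29 did not pass, and of 41 genes of complexes II to V 9 fell and 32 did not pass. Both lists had a median of -0.49, and 37 of 37 and 40 of 41 values were below 0. Ndufv1, the complex I subunit that binds NADH, was at 920.1, 1037, 832 and 937 CPM in Sham-NT, 667, 650.1, 511 and 577 in TAC-mScarlet and 816, 688, 658 and 564 in TAC-BacNav. The groups did not overlap (-0.54 ± 0.12, adjusted p = 0.0373). The accessory subunits Ndufa5, Ndufa13 and Ndufb2 fell with overlap (-0.74, -0.72 and -0.86). Atp5g3, a membrane subunit of ATP synthase, fell too (-0.595). Cyc1, cytochrome c1 of complex III (-0.51), and Uqcrc1, a core protein of the same complex (-0.48), were shared as well. Cox7a1, the heart and muscle isoform of a complex IV subunit, fell (-0.81 ± 0.18, adjusted p = 0.0379) with overlap. Leaving out TAC-BacNav 1 gave 19 and 21 lower members, and leaving out TAC-mScarlet 3 gave 1 and 1. No gene of either list was called when any 1 of Sham-NT 1, 2 and 4, TAC-BacNav 2, 3 and 4 and TAC-mScarlet 4 was left out, whereas 31 and 32 were called without Sham-NT 3. With library size scaling 4 and 4 fell, at medians of -0.37 and -0.38. With the Fos side as a factor 31 and 33 fell. Within the Fos-high side 26 and 23 fell, and within the Fos-low side 0 and 0 did, with medians of -0.41 and -0.49. In each of the 3 groups the deepest library (Sham-NT 3, TAC-mScarlet 3 and TAC-BacNav 4) also had the lowest mean log2 level of these lists (9.33, 9.08 and 8.91). With all libraries thinned to equal totals 9 and 10 genes fell, at medians of -0.49 and -0.49. Thinning draws counts at random and, sampling noise aside, leaves each library's composition as it was, so it cannot show the part of depth. The part of depth in these changes was not tested. The 30 cytosolic ribosomal protein genes had a median of -0.21 with 0 called by edgeR, and 5 fell within the Fos-high side.

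All called genes of fatty acid uptake and oxidation were lower. Of 33 tested, 7 fell and 26 did not pass, with a median of -0.42. The share called was 21.2%, against 2.57% of all genes tested. Leaving out TAC-BacNav 1 gave 9 lower members and leaving out TAC-mScarlet 3 gave 4, and 5 fell within the Fos-high side and 3 within the Fos-low side. No member was called when any 1 of Sham-NT 1, 2 and 4, TAC-BacNav 2 and 4 and TAC-mScarlet 4 was left out. Acaa2, the thiolase of the last step of mitochondrial beta-oxidation, was at 1304, 1631, 1142 and 1391 CPM in Sham-NT, 798, 750.0, 382 and 498 in TAC-mScarlet and 1065, 864, 671 and 595 in TAC-BacNav. All constricted libraries were lower than all shams (-0.97 ± 0.19, adjusted p = 0.0305). Slc27a1, a fatty acid transport protein, was shared, with -1.11 in TAC-mScarlet and -0.91 in TAC-BacNav (adjusted p = 0.03703), and the isomerase gene Eci1 was also shared (-0.68). The thioesterase gene Acot2 fell with overlap (-0.800). Cpt1b, the muscle carnitine palmitoyltransferase, gave -0.69 (95% interval -1.66 to 0.28) and Acadm, which starts the oxidation of medium-chain fatty acids, -0.31, and neither was called. Etfbkmt, which methylates the electron transfer flavoprotein, was chosen after its values were seen as the lower gene with the smallest p (29.7 to 40.2 CPM in Sham-NT and 14.2 to 23.8 in constricted hearts, -0.85 ± 0.12, adjusted p = 0.00597).

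The other fuel pathways held 6 called genes, all lower. The share called was 4.76% in the citrate cycle list, 16% in the glycolysis list and 4.76% in the branched-chain and ketone list. Over all genes tested it was 2.57%. In the citrate cycle Suclg1, a subunit of succinyl-CoA ligase, fell (-0.58, adjusted p = 0.03703), and 20 of 21 did not pass, against 4 called members without TAC-BacNav 1. In glycolysis Pfkfb1, which sets the level of fructose 2,6-bisphosphate, Pkm (pyruvate kinase), Eno3 (muscle enolase) and Ldhb (lactate dehydrogenase B) fell, and 21 of 25 did not pass. Pfkfb1 was at 18.04, 37.3, 18.4 and 25.2 CPM in Sham-NT, 5.26, 6.57, 3.83 and 2.32 in TAC-mScarlet and 18.1, 8.93, 9.61 and 6.001 in TAC-BacNav. TAC-BacNav 1 lay at the lower end of the sham range and the other 7 were below it (-1.83 ± 0.29, adjusted p = 0.0223), and reads of Apex2 on the opposite strand may be included. Pkm (-0.37) and Ldhb (-0.49) were shared. Bckdhb, a subunit of the branched-chain ketoacid dehydrogenase, fell (-0.55), and 20 of 21 genes of branched-chain and ketone breakdown did not pass. None of 19 PGC-1, ERR and PPAR regulators was called by edgeR with all libraries, and with the Fos side as a factor 2 fell. Ppargc1a, the coactivator of mitochondrial biogenesis, gave -0.53 (-0.89 in TAC-mScarlet and -0.17 in TAC-BacNav, adjusted p = 0.141), and Esrra, the estrogen-related receptor alpha, -0.42 (adjusted p = 0.0511).

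**Figure D5:**
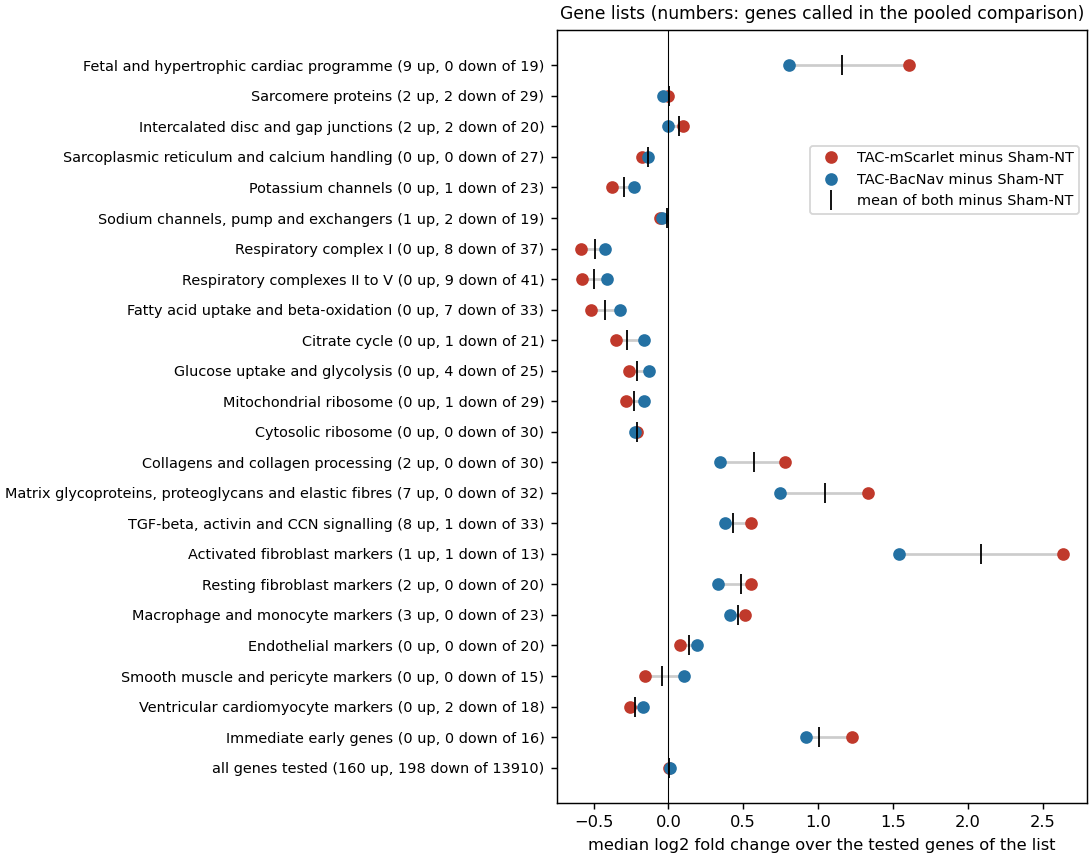
Median log2 fold change over the tested genes of each list (x axis) for TAC-mScarlet, TAC-BacNav and their mean, each against the same Sham-NT mice, with the number of called genes beside the name. Hypertrophic, matrix, TGF-beta and fibroblast lists lie above 0, and the respiratory and fatty acid lists below it.

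Ligands and regulators of TGF-beta signalling were mostly higher where they were called. Inhba, the activin A subunit, was at 1.59, 2.93, 1.68 and 1.28 CPM in Sham-NT, 6.93, 5.44, 8.15 and 6.15 in TAC-mScarlet and 3.72, 3.74, 6.404 and 4.19 in TAC-BacNav. All constricted libraries were above all shams (1.56 ± 0.28, adjusted p = 0.0251). Bambi, a decoy receptor for TGF-beta family ligands, was shared (0.76, adjusted p = 0.03397). Ccn2, connective tissue growth factor, was called close to the threshold (1.500 ± 0.35, adjusted p = 0.0487) with overlap: TAC-BacNav ran from 151 to 299.9 CPM and Sham-NT from 91.7 to 165. The ligand gene Tgfb2 rose (1.26), while Tgfb1 gave 0.22 (95% interval -0.036 to 0.48). Ltbp1, which stores latent TGF-beta in the matrix, fell (-0.43). The list's 33 members gave 8 higher calls, 1 lower call and 24 without one, with a median of 0.43. The share called was 27.3%, against 2.57% of all genes tested. Leaving out TAC-mScarlet 3 gave 5 higher and 1 lower, and leaving out TAC-BacNav 1 gave 10 and 1. The number called was 1 without Sham-NT 1, 2 or 4, 2 without TAC-BacNav 2 or 4, and 3 without TAC-BacNav 3 or TAC-mScarlet 4. Within the Fos-high side 2 rose, and within the Fos-low side 7 did.

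Most matrix genes were not called, but the share called was above that of all genes tested (2.57%). It was 6.67% in the collagen list and 21.9% in the glycoprotein list. The called members of the collagen and glycoprotein lists were higher, while Col11a2, a collagen gene outside those lists, was lower. Of 30 tested collagens and collagen-processing genes, 2 rose and 28 did not pass. Both were shared. Col8a1, a short-chain collagen, was at 34.3, 33.97, 41.4 and 34.9 CPM in Sham-NT, 119.7, 122, 428 and 229 in TAC-mScarlet and 46.9, 73.9, 127 and 174 in TAC-BacNav. TAC-mScarlet 3 was the highest and TAC-BacNav 1 was close to the highest sham (2.09 ± 0.46, adjusted p = 0.0456). Col14a1, a fibril-associated collagen, was at 6.94 to 10.9 CPM in Sham-NT and 13.1 to 43.99 in constricted hearts (1.28 ± 0.29, adjusted p = 0.04300). Col11a2, a minor fibrillar collagen chain, fell (-1.196 ± 0.26, adjusted p = 0.0373) and was shared, at 5.18 to 8.01 CPM in Sham-NT and 1.55 to 4.14 in constricted hearts. The major fibrillar collagen genes were not called: Col1a1 gave 1.18 ± 0.300 (adjusted p = 0.0578) and Col3a1 1.24 ± 0.38 (adjusted p = 0.0984). Of 32 matrix glycoproteins and proteoglycans 7 rose and 25 did not pass, with a median of 1.05 (1.33 in TAC-mScarlet, 0.74 in TAC-BacNav). The small leucine-rich proteoglycans Bgn (1.31), Lum (0.98) and Prelp (0.902) were shared, and Fbln2, fibulin 2, rose with overlap (0.95). The mean log2 level of both lists was 4.88 to 5.01 in Sham-NT, with TAC-BacNav 1 inside that range at 4.975, the other constricted libraries at 5.505 or above and TAC-mScarlet 3 highest at 6.99. Without TAC-mScarlet 3 the medians of the collagen and glycoprotein lists were 0.43 and 0.78, with 5 and 8 members called. Leaving out TAC-BacNav 1 gave 6 and 13 higher members. Neither list had a called member when any 1 of Sham-NT 1, 2 and 4 and TAC-BacNav 2 and 4 was left out. Without TAC-BacNav 3 they had 0 and 2, and without TAC-mScarlet 4 they had 0 and 1. Within the Fos-high side 0 and 0 rose, and within the Fos-low side 8 and 13.

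The markers of activated fibroblasts had the largest median of the 48 lists tested, 2.09, but 1 of 13 rose, Col8a1, 1 fell and 11 did not pass. The share called was 15.4%, and 10% for the resting fibroblast markers below, against 2.57% of all genes tested. The median was 1.83 without TAC-mScarlet 3 and 2.21 without TAC-BacNav 1, with 3 and 5 higher calls. No marker was called when any 1 of Sham-NT 1, 2 and 4, TAC-BacNav 2, 3 and 4 and TAC-mScarlet 4 was left out. Postn, a matricellular protein of activated fibroblasts, was at 46.8, 39.6, 52.4 and 49.99 CPM in Sham-NT, 213, 263, 2067 and 736 in TAC-mScarlet and 56.2, 135, 290.2 and 281 in TAC-BacNav. All 8 constricted libraries were above all shams, TAC-BacNav 1 narrowly and TAC-mScarlet 3 by far the most, and the change of 3.06 ± 0.75 missed the threshold (adjusted p = 0.0595). Cilp (3.801 ± 0.88, adjusted p = 0.0554) and Thbs4 (3.26 ± 0.84, adjusted p = 0.0679) missed it as well. The summed level of the 13 markers was 238 to 276 CPM in Sham-NT, 587 to 3925 in TAC-mScarlet and 290.2 to 828 in TAC-BacNav. The member that fell, Angptl4, an inhibitor of lipoprotein lipase, is on the list as a marker but is known as a fasting and glucocorticoid response gene (-1.53 ± 0.38, adjusted p = 0.04605). Of the resting fibroblast markers, Lum and Smoc2 (0.51), a matricellular calcium-binding protein, rose and 18 of 20 did not pass, with Pdgfra, the receptor that defines cardiac fibroblasts, at 0.48 (adjusted p = 0.0746). The part of fibroblast number in the matrix changes was not tested.

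Macrophage and monocyte markers were called 3 times out of 23, each time higher. Adgre1, which encodes F4/80, was at 16.7, 11.5, 12.6 and 11.4 CPM in Sham-NT, 21.7, 23.3, 30.4 and 19.1 in TAC-mScarlet and 18.8, 20.6, 19.6 and 21.7 in TAC-BacNav. The groups did not overlap (0.75 ± 0.15, adjusted p = 0.0316). The lysozyme gene Lyz2 was shared (0.57) and the Fc receptor gene Fcgr1 rose with overlap (1.56). The markers' summed level was 692 to 900.0 CPM in Sham-NT, 983 to 1582 in TAC-mScarlet and 974 to 1123 in TAC-BacNav. Leaving out TAC-mScarlet 3 left 3 higher members and a median of 0.37 in place of 0.46. Within the Fos-high side 0 rose, at a median of 0.46, and within the Fos-low side the median was 0.40. Without Sham-NT 2, Sham-NT 4, TAC-BacNav 2 or TAC-BacNav 4 none was called. Retnla, a secreted product of alternatively activated macrophages, went the other way, at 17.4, 19.7, 9.96 and 15.1 CPM in Sham-NT, 5.97, 6.68, 1.34 and 1.86 in TAC-mScarlet and 7.67, 6.88, 2.802 and 3.37 in TAC-BacNav (-1.78 ± 0.37, adjusted p = 0.0373). All constricted libraries were lower than all shams. Of 20 endothelial, 15 smooth muscle and pericyte, 11 mesothelial, 8 neutrophil and mast cell and 24 interferon-inducible genes tested, 0 were called by edgeR, with medians in that order of 0.14, -0.041, -0.073, 0.31 and 0.13, and with library size scaling 1, 1, 1, 0 and 1 rose. The mural and mesothelial medians were 0.073 and 0.040 with that scaling. Of the T, B and NK cell markers 6 of 18 were abundant enough to test.

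Receptors and signalling proteins were among the shared genes. Rgs2, which shortens signalling from Gq-coupled receptors such as those for angiotensin II and noradrenaline, was at 75.1, 76.5, 67.8 and 75.8 CPM in Sham-NT, 23.4, 38.2, 27.2 and 16.6 in TAC-mScarlet and 43.9, 39.8, 20.3 and 24.8 in TAC-BacNav. The shams lay within a narrow band and all 8 constricted libraries were lower (-1.34 ± 0.21, adjusted p = 0.0184). Mas1, the receptor for angiotensin 1-7, fell with overlap (-1.92, adjusted p = 0.04605), and beta-arrestin 1, Arrb1, rose (0.54). The other 21 of 24 genes of the adrenergic and angiotensin systems did not pass. The beta-1 adrenergic receptor gene Adrb1 gave -0.15 and was not called. Met, the receptor for hepatocyte growth factor, was at 1.56 to 2.33 CPM in Sham-NT and 3.38 to 7.65 in constricted hearts (1.49 ± 0.25, adjusted p = 0.0223). F2r, the thrombin receptor, chosen after its values were seen, was at 30.3 to 42.2 CPM in Sham-NT and 52.3 to 113 in constricted hearts (0.89, adjusted p = 0.0238). Bcl2, the mitochondrial survival protein, was at 9.52, 9.57, 11.00 and 10.9 CPM in Sham-NT, 20.9, 18.3, 37.95 and 31.2 in TAC-mScarlet and 18.5, 12.9, 18.3 and 23.8 in TAC-BacNav. The groups did not overlap (1.12 ± 0.21, adjusted p = 0.02702), and 15 of 16 tested Bcl2 family genes did not pass. The transcription factor gene Runx1 was the 1 called gene of 22 cardiac transcription factors (1.21 ± 0.31, adjusted p = 0.0472), while Gata4 gave 0.069. Igfbp5, an insulin-like growth factor binding protein (0.901), and Vegfc, a lymphatic growth factor (0.804), rose, and Vegfb, an endothelial ligand made by cardiomyocytes, fell (-0.46). The other 25 of 28 VEGF, angiopoietin and IGF system genes did not pass. The share called was 10.7% in that list and 12.5% in the adrenergic and angiotensin list. It was 6.25% in the Bcl2 family and 4.55% among cardiac transcription factors, against 2.57% of all genes tested.

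The largest shared increases included genes at low counts. Atp6v0a4, a proton pump subunit, had 1, 1, 0 and 0 counts in Sham-NT, 7, 29, 77 and 57 in TAC-mScarlet and 2, 8, 17 and 19 in TAC-BacNav, too few for a fold (adjusted p = 0.0373). Itgb8, an integrin subunit that activates latent TGF-beta, had 5, 5, 6 and 6 counts in Sham-NT, 29, 37, 61 and 40 in TAC-mScarlet and 29, 23, 17 and 49 in TAC-BacNav. In CPM these were 0.776 to 0.991 in the shams and 2.27 to 5.85 in the constricted libraries (2.02 ± 0.299, adjusted p = 0.0112). Orai2, a subunit of store-operated calcium channels (1.48), the glutamate transporter gene Slc1a3 (1.45) and Srpx (1.49), whose exons overlap Rpgr, were also shared. Gask1a, a Golgi-associated kinase relative, changed by 1.795 in TAC-mScarlet and 1.61 in TAC-BacNav (adjusted p = 0.0456). Hectd2os, whose exons overlap Hectd2 on the opposite strand, rose (1.42 ± 0.24, adjusted p = 0.0238). Crispld2, a secreted protein chosen after its values were seen, had the third smallest p, at 53.1, 60.7, 72.3 and 59.8 CPM in Sham-NT, 116, 109, 131 and 110.4 in TAC-mScarlet and 93.7, 105, 92.1 and 115 in TAC-BacNav (0.82 ± 0.11, adjusted p = 0.004998). Both constricted groups were well above the shams.

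Among the shared decreases the largest was Lgals4, galectin 4, a carbohydrate-binding lectin. It was at 221, 331, 83.2 and 187 CPM in Sham-NT, 51.5, 62.97, 25.6 and 21.3 in TAC-mScarlet and 65.7, 59.3, 68.04 and 24.5 in TAC-BacNav. Sham-NT 3 was the lowest sham, and the highest constricted library came close to it (-2.13 ± 0.399, adjusted p = 0.0373). Sbk2, a muscle-enriched kinase (-1.97), Tesmin (-1.55), Klhl33 (-1.401), Epb41l4b (-1.38) and Tmem82 (-1.34) were lower as well, all with adjusted p between 0.02702 and 0.0456. Egflam, which encodes the dystroglycan ligand pikachurin, was at 29.1, 39.4, 27.2 and 36.2 CPM in Sham-NT, 14.9, 14.7, 10.3 and 11.02 in TAC-mScarlet and 24.9, 15.7, 16.5 and 14.9 in TAC-BacNav (-1.12 ± 0.16, adjusted p = 0.009404). The shams did not overlap the constricted libraries, although TAC-BacNav 1 was close to the lowest of them. Slc25a22, a mitochondrial glutamate carrier (-1.04), and Ttll1, a tubulin polyglutamylase (-1.12), were shared too. The receptor phosphatase gene Ptpru gave nearly equal decreases in TAC-mScarlet (-1.13) and TAC-BacNav (-1.05, adjusted p = 0.0398).

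Some genes had nearly equal changes in both constricted groups. Among the 100 shared higher genes with the smallest p, the least different were Scd2, a stearoyl-CoA desaturase (0.78 in TAC-mScarlet, 0.79 in TAC-BacNav), Mest (0.896 and 0.89), Kif3b, a kinesin subunit (0.62 and 0.61), and Gnai3, an inhibitory G protein subunit (0.47 and 0.46). Scd2 was at 13.7, 15.03, 21.4 and 15.1 CPM in Sham-NT, 28.7, 26.4, 32.5 and 24.9 in TAC-mScarlet and 27.7, 33.7, 21.6 and 29.9 in TAC-BacNav. Sham-NT 3 and TAC-BacNav 3 nearly met. On the lower side, where all 86 were ranked, they were Inca1 (-0.56 and -0.55), Tmem82 (-1.33 and -1.35), Maf1, a repressor of RNA polymerase III (-0.45 and -0.43), the peroxisomal gene Pxmp4 (-0.44 and -0.42) and Hand2os1, which lies on the strand opposite Hand2 (-0.37 and -0.35). These were chosen for a small difference, so their likeness is a description.

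Of the 358 genes called in the pooled contrast, 340 were also called in TAC-mScarlet against Sham-NT, and 2 in TAC-BacNav against Sham-NT. Another 379 genes called in TAC-mScarlet against Sham-NT were not called when pooled. Pooling also called 18 genes that were called in neither group alone, 7 higher and 11 lower, 10 of them shared. Tnfrsf1b, a receptor for tumour necrosis factor, was at 9.71, 10.7, 8.67 and 8.33 CPM in Sham-NT, 13.7, 13.5, 14.95 and 14.6 in TAC-mScarlet and 11.3, 19.4, 17.2 and 16.7 in TAC-BacNav. All constricted libraries were higher (0.698 ± 0.16, adjusted p = 0.0398). Atp6v1a, a catalytic subunit of the vacuolar proton pump (0.52), the transcription factor gene Ets1 (0.52) and Smad7, the inhibitory Smad of TGF-beta signalling (0.63), rose. Prkag1, a regulatory subunit of AMP-activated protein kinase, was at 72.2, 80.2, 53.96 and 75.1 CPM in Sham-NT, 48.9, 44.2, 52.6 and 46.6 in TAC-mScarlet and 55.9, 49.7, 52.96 and 34.4 in TAC-BacNav (-0.55 ± 0.13, adjusted p = 0.0449). Sham-NT 3 lay below the highest constricted value. Aldh9a1, an aldehyde dehydrogenase of carnitine synthesis (-0.86), Dohh, which modifies translation factor eIF5A (-0.86), Sys1 (-0.58) and Zfp523 (-0.59) fell.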

How the data were processed

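Bulk RNA-seq of left ventricle was deposited as a table of raw counts per gene for each of 12 mice. The counts came from HISAT2 and featureCounts, per the submitters' processing notes. The notes name GRCh38, but 14946 of 14957 gene IDs matched mouse GENCODE vM21. No source used here gives tool versions, the strand setting or the authors' rule for leaving out genes. Every gene's counts summed to at least 30, and no mitochondrially encoded gene is listed.

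The counts were fitted with edgeR 4.0.16 (R 4.3.3) in 1 model of 3 groups over all 12 libraries, with TMM factors, a filter by group that left 13910 genes and removed 1047, and the robust quasi-likelihood test. A standard error is the size of the log2 change divided by the square root of F. Levels are TMM-scaled CPM computed from the counts. The procedure was tested on simulated data, in which all mice of a group were drawn alike. That test does not bear on the dependence on single mice. All replicate pairs differed by more than sampling noise (chi-square of 5.35 or more for each degree of freedom).

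Alternatives were RLE factors, library size alone, no filter, DESeq2 1.42.0, limma-voom (limma 3.58.1), 2 groups only, replicate blocks, the Fos split, equal totals, gene length offsets and leaving out each library. Gene lists, the groups of genes and the rule for named genes (anchor genes of heart failure, the 15 shared genes per direction with the largest change, up to 4 called genes per list and direction, the first 3 genes of each list, 8 per direction called only when pooled, 5 with the smallest p between the constricted groups and 5 per direction that differed least among up to 100 shared genes) were chosen with earlier results of these data known. Some genes the rule covers are not reported here.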

Additional observations from a re-analysis of the deposited data

Results flagged for a closer look

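Single libraries stood apart from the rest of their group for 35 of 258 sets of values checked with Dixon's test, over the named genes and library totals. The sets were the 4 shams and the 8 constricted libraries, the latter holding both vectors. Chance gives about 1 in 20 for independent, normally distributed values. These were CPM without a log, from genes that can vary together, so the number flagged cannot be judged against that rate.

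TAC-mScarlet 3 was the highest constricted library for 15 of these genes. Its matrix and fibroblast genes were Cilp (433 CPM, others at most 208), Col14a1 (43.99, others at most 22.9), Col1a1 (307, others at most 175), Col3a1 (1028, others at most 391.7), Lum (253, others at most 144), Postn (2067, others at most 736), Thbs4 (240.0, others at most 96.0) and Srpx (13.4, others at most 7.73). Macrophage markers were high in the same library, with Adgre1 at 30.4 CPM (others at most 23.3), Fcgr1 at 12.5 (others at most 5.97) and Lyz2 at 655 (others at most 492). So were Nppa (2871 CPM, others at most 1348), Runx1 (12.5, others at most 6.96), Slc1a3 (15.5, others at most 7.77) and Dio2 (88.1, others at most 37.2). The pooled changes without this mouse were 2.55 for Postn, 0.904 for Col3a1, 0.68 for Adgre1 and 3.12 for Nppa on the log2 scale.

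TAC-BacNav 1 was the constricted library nearest to sham for Egflam (24.9 CPM, others at most 16.5), Pfkfb1 (18.1, others at most 9.61) and Sbk2 (3.604, others at most 1.93). TAC-mScarlet 4 was highest for Xirp1 (519 CPM, others at most 355).

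Sham-NT 3 lay toward the constricted values for Cox7a1 (757 CPM, other shams at least 1228), Ndufa13 (447, other shams at least 791), Epb41l4b (3.37, other shams at least 5.08), Rgs2 (67.8, other shams at least 75.1), Col8a1 (41.4, other shams at most 34.9), Flnc (297, other shams at most 217), Prelp (42.96, other shams at most 39.04), Xirp1 (199, other shams at most 134) and Itgb1bp2 (270.5, other shams at least 344). It lay away from them for Itgb8 (0.777 CPM, other shams at least 0.961) and Kcnd2 (35.98, other shams at most 23.9). Sham-NT 1 was highest for Nppb (575 CPM, other shams at most 250), Fcgr1 (3.57, other shams at most 1.56) and Inca1 (15.7, other shams at most 12.7). Sham-NT 2 was highest for Slc1a3 (2.93 CPM, other shams at most 1.98) and lowest for Thbs4 (3.32, other shams at least 5.29).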

How the results depend on the processing

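All 106 called genes named in the text kept the direction of their change under each of the 24 alternatives that gave them a value. They had been called in these same data, so a kept direction says little. Of the 106, 56 lost their call with limma-voom and 64 with 2 groups only. Without Sham-NT 1, 2 or 4 the number lost was 96, 105 and 103, and without TAC-BacNav 2 it was 91. With RLE factors, DESeq2, the Fos side as a factor or gene length offsets it was 0. The number of called genes, 358 with 160 higher and 198 lower, and of shared genes, 192 with 106 higher and 86 lower, did move under other alternatives. Both stayed near these values with RLE factors (384 called, 193 shared), no filter (355 and 190) and equal totals (391 and 197). Leaving out 1 library gave 2 to 975 called genes (2 to 360 higher, 0 to 615 lower) and 2 to 803 shared genes (2 to 290 higher, 0 to 513 lower). DESeq2 called 1103 genes (507 higher, 596 lower), with 356 shared (196 and 160). With limma-voom 120 were called (47 and 73), with 85 shared (36 and 49). Treating the 8 constricted libraries as 1 group gave 115 (59 and 56), with 90 shared (50 and 40). The Fos side as a factor gave 1145 (514 and 631), with 315 shared (176 and 139). Fos-high libraries alone gave 441 shared, 291 of them lower, and Fos-low libraries alone 144 called (89 and 55), with 55 shared lower. Library size alone gave 418 higher and 109 lower, with 239 and 46 shared. Gene length offsets gave 546 called, 363 of them lower, with 148 shared lower. The cause was not tested, except that subsets hold fewer libraries.

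A replicate block gave 630 called genes (299 higher, 331 lower). The labels' numbers were not taken as pairs: deviations of same-numbered libraries correlated at -0.281 to 0.376, and 3 of 12 libraries correlated best with their own number.

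The genes Adrb1, Gata4, Gja1 and Slc8a1, which were not called, changed sign. Within the Fos-high side Adrb1 gave 0.34. Within the Fos-low side Gata4 gave -0.14 and Gja1 -0.17. With library size scaling Slc8a1 gave 0.065. Leaving out 1 library gave -0.299 to 0.075 for Adrb1, -0.0032 to 0.14 for Gata4 and -0.105 to 0.0396 for Slc8a1. At these depths Itgb8, Atp6v0a4 and other genes near 1 CPM rest on few counts in the shams.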

Other observations

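The 16 immediate early genes had a median log2 change of 1.004 in the pooled contrast, and 0 were called by edgeR. With the Fos side as a factor 6 of them rose. Fos itself was at 80.5, 54.9, 5.56 and 1.602 CPM in Sham-NT, 301, 123, 154 and 7.89 in TAC-mScarlet and 158, 225, 3.87 and 5.26 in TAC-BacNav, a change of 1.78 ± 1.401 (adjusted p = 0.514). Each group held libraries on both sides of 30 CPM.

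Some lists held 1 called gene. The share called was 3.70% of the antioxidant, 4.17% of the unfolded protein response and heat shock, 3.45% of the mitochondrial ribosomal and 3.85% of the integrin list. Over all genes tested it was 2.57%. Sod1, the cytosolic superoxide dismutase, fell (-0.61 ± 0.15, adjusted p = 0.0452), and 26 of 27 antioxidant genes did not pass. Herpud1, a component of endoplasmic reticulum-associated degradation, fell (-0.75 ± 0.16, adjusted p = 0.0373), and 23 of 24 unfolded protein response and heat shock genes did not pass. Slc16a10, which carries thyroid hormones and aromatic amino acids, fell (-0.55 ± 0.13, adjusted p = 0.04300), while Dio2, the activating deiodinase, was at 1.59, 1.56, 2.07 and 1.44 CPM in Sham-NT, 9.68, 10.5, 88.1 and 37.2 in TAC-mScarlet and 1.51, 4.59, 12.1 and 12.2 in TAC-BacNav and missed the threshold (3.298 ± 0.93, adjusted p = 0.0806). Mrps35, of the small mitochondrial ribosomal subunit, was the 1 called gene of 29 mitochondrial ribosomal genes (-0.499), and the integrin-binding melusin gene Itgb1bp2 the 1 called of 26 integrin, laminin and nidogen genes (-0.502). Of 23 cell cycle, 25 proteolysis, 17 circadian clock, 19 calcineurin and MEF2, 7 red blood cell and 6 Schwann cell and neuronal genes tested, 0 were called by edgeR, with medians in that order of 0.17, -0.054, -0.101, -0.006, 0.22 and 0.011. With the Fos side as a factor 2 cell cycle, 1 clock and 1 calcineurin gene rose, and 1 cell cycle, 2 proteolysis and 1 neuronal gene fell.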
